A study of Mus musculus and Mus musculus
Oryx dammah with 30 samples.

Results

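Imprinted genes are described here in nuclear transfer (NT) embryos made by fusing C2C12 cells, a myoblast line from C3H mice, with mouse embryos arrested in the cell cycle. The 34 members were taken by gene name from a list of genes known to be imprinted in mouse, out of 53023 gene rows in the tables of the 4-cell and replication experiments and 55364 in the table of the 2-cell experiment. By their known parental bias, 18 are expressed from the paternal allele, 5 more are paternally expressed and imprinted through maternal H3K27me3, 10 are maternally expressed and 1, Gnas, has transcripts of both kinds. They lie on 11 chromosomes, 15 of them on chromosome 7. All 34 have a row in all 3 tables. Values were summed over alleles, so none of them says from which parent, or from which of the donor and recipient genomes, a transcript came.

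Imprinting marks a gene in the egg or the sperm, by DNA methylation or, for a smaller class, by H3K27me3 laid down in the oocyte, so that a single parental allele is expressed after fertilization. Methylation marks are kept through early cleavage by the maintenance methyltransferase Dnmt1 and by the zinc finger protein Zfp57 with its partner Trim28, whereas H3K27me3 imprints fade during development. Many imprinted genes act in growth of the placenta and the embryo, and several have stores of mRNA in the oocyte as well as transcripts made by the embryo.

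Recipients were BDF1 embryos, from C57BL/6 oocytes and DBA/2 sperm, held in 0.1 μg/mL demecolcine, and every embryo received a pair of donor cells and was cultured for 24 h. The 4-cell experiment compared 3 libraries without and 3 with α-amanitin, an inhibitor of RNA polymerase II, with 3 embryos pooled for each and NT done at 46 hpi (hours post insemination). The replication experiment compared 3 libraries called DR with 3 called D, each a pool of 4 such NT embryos, and none had α-amanitin. The labels do not say which letters mark embryos that underwent DNA replication. The study set these groups apart by the time of NT, before or after the recipient's DNA replication. DNA replication, time of NT and age at collection therefore cannot be told apart. The 2-cell experiment had 6 libraries without and 6 with α-amanitin, pools of 5 embryos, and its samples were early 2-cell embryos with NT at 21 hpi and culture to 45 hpi or late 2-cell embryos with NT at 30 hpi and culture to 54 hpi. Its table has 2 sets of columns, NT and Am in the first and R and RAm in the second, with 3 libraries under each name. Am marks α-amanitin, but the names do not say which set was early and which late, so the sets are called by these names. Each pool mixes the recipient's oocyte-derived RNA, RNA made by recipient nuclei, RNA brought in by the donor cells and RNA made by donor nuclei. No label says that pools came from separate days or matings, so the p-values measure the spread between these pools.

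Levels are in FPKM, a read count divided by gene length and library total. Depth on genes was 1136771 to 3101002 reads per library in the 4-cell experiment, 2603946 to 19181387 in the replication experiment and 4712268 to 10503779 in the 2-cell experiment. Of 10 oocyte and early embryo markers, 10 passed the filter for testing in each experiment, and of 6 cumulus and granulosa cell markers, none did. Of 16 donor myoblast and mesenchymal markers, 9 were tested in the 4-cell, 11 in the replication and 9 in the 2-cell experiment. In the 2-cell libraries Lgals1 averaged 1051 FPKM without and 1591 FPKM with α-amanitin. Col1a1, Thy1 and Myod1 were under 1 FPKM in every 2-cell library. Some libraries stood apart. In the 2-cell experiment, the RAm group did: its 10 most abundant genes took 46.45% to 51.05% of reads, against 25.1% to 29.4% in Am, 11.8% to 21.1% in NT and 10.01% to 13.1% in R. Across genes, log2 levels of RAm libraries correlated with those of Am at 0.638 to 0.700 and with each other at 0.885 to 0.902. Spike-in RNAs took 6.54% to 11.3% of reads with α-amanitin and 2.38% to 6.26% without it. In such pooled samples, fewer cells of a type and less RNA per cell cannot be told apart.

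Promoter windows of RefSeq (assembly GRCm38.p6, 250 bases before to 50 after a start site) were found for 28 of the 34 genes, 48 windows in all. The median window of these genes held 14.5 CG pairs, against 7 over all 32851 windows. TGCCGC, the core of the motif bound by Zfp57, was searched on both strands (its reverse complement is GCGGCA) and was present in 10 of the 48 windows, 20.8%, where 11.6% of all windows hold it. Of the 10, 2 are windows of Mest that start 3 bases apart and hold the same sites, and the motif contains a CG pair, so the shares are not compared. The following stretches show the bases upstream of the start site, outside annotated exons, of 3 members that were higher without α-amanitin in 2-cell embryos and of Mest, which was lower in 1 of the sets of columns and holds the motif. They are written 5′ to 3′ on the gene's strand, and capitals mark CG pairs in the first 3 and the motif or its reverse complement in Mest.
Igf2r, minus strand, chr17:12769707-12769956: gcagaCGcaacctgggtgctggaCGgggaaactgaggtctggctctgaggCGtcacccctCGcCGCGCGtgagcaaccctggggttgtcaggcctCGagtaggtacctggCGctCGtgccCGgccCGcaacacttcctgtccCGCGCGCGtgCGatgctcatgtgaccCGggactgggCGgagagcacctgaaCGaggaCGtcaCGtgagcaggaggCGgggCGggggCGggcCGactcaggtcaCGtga
Jade1, plus strand, chr3:41555484-41555730: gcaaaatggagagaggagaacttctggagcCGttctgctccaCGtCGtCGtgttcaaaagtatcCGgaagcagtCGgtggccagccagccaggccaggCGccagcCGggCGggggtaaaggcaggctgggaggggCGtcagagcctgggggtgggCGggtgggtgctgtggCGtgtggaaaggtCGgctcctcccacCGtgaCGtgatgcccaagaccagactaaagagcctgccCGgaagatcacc
Zrsr1, plus strand, chr11:22971755-22972004: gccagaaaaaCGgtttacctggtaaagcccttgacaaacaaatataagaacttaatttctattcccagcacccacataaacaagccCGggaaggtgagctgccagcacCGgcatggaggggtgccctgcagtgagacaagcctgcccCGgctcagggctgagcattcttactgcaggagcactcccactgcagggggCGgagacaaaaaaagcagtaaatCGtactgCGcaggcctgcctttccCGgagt
Mest, plus strand, chr6:30737800-30738049: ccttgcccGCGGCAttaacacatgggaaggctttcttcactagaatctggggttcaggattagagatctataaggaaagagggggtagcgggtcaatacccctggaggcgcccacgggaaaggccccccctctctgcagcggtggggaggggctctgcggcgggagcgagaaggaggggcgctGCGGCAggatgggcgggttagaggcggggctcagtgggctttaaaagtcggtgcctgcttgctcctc

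The stretch of Igf2r held 27 CG pairs, that of Jade1 16 and that of Zrsr1 8, with 0 copies of the motif in each. That of Mest held 14 CG pairs and 2 copies. The stretches of Jade1 and Mest each lie before 1 of several start sites of the gene, and the full windows of Jade1 held 14 to 38 CG pairs. A match is a description of the sequence and not evidence of binding.

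The level of imprinted genes differed widely. Of the 34, 28 had at least 1 read in the 4-cell experiment, 31 in the replication experiment and 32 in the 2-cell experiment, and 18, 21 and 23 reached 1 FPKM in at least 1 library. The following values are levels in FPKM without α-amanitin. In 4-cell embryos the highest was Snrpn, which encodes a splicing protein, at 165.9 ± 30.2 (SD, n = 3), followed by Impact, a regulator of translation, at 20.1 ± 9.74 and Phlda2, a growth-restricting pleckstrin homology protein, at 18.8 ± 15.3. Impact and Phlda2 did not differ beyond their spread. In 2-cell embryos the first was Phlda2 at 88.5 ± 86.2 (SD, n = 6), then Snrpn at 21.5 ± 5.73, Impact at 15.0 ± 2.14 and Cdkn1c, a cyclin-dependent kinase inhibitor, at 11.2 ± 3.21. The tables were normalized separately and 8 members, among them Impact, have another gene length in the 2-cell table, so no test was made between stages. At the other end, Nap1l5 was at 0 in every library of the 3 experiments, and Magel2 was read in a single library, with 2 reads. Dlk1, Igf2, Kcnq1ot1, Meg3, Mkrn3, Ndn, Peg10 and Slc22a18 were also under 1 FPKM in every library.

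**Figure D1:**
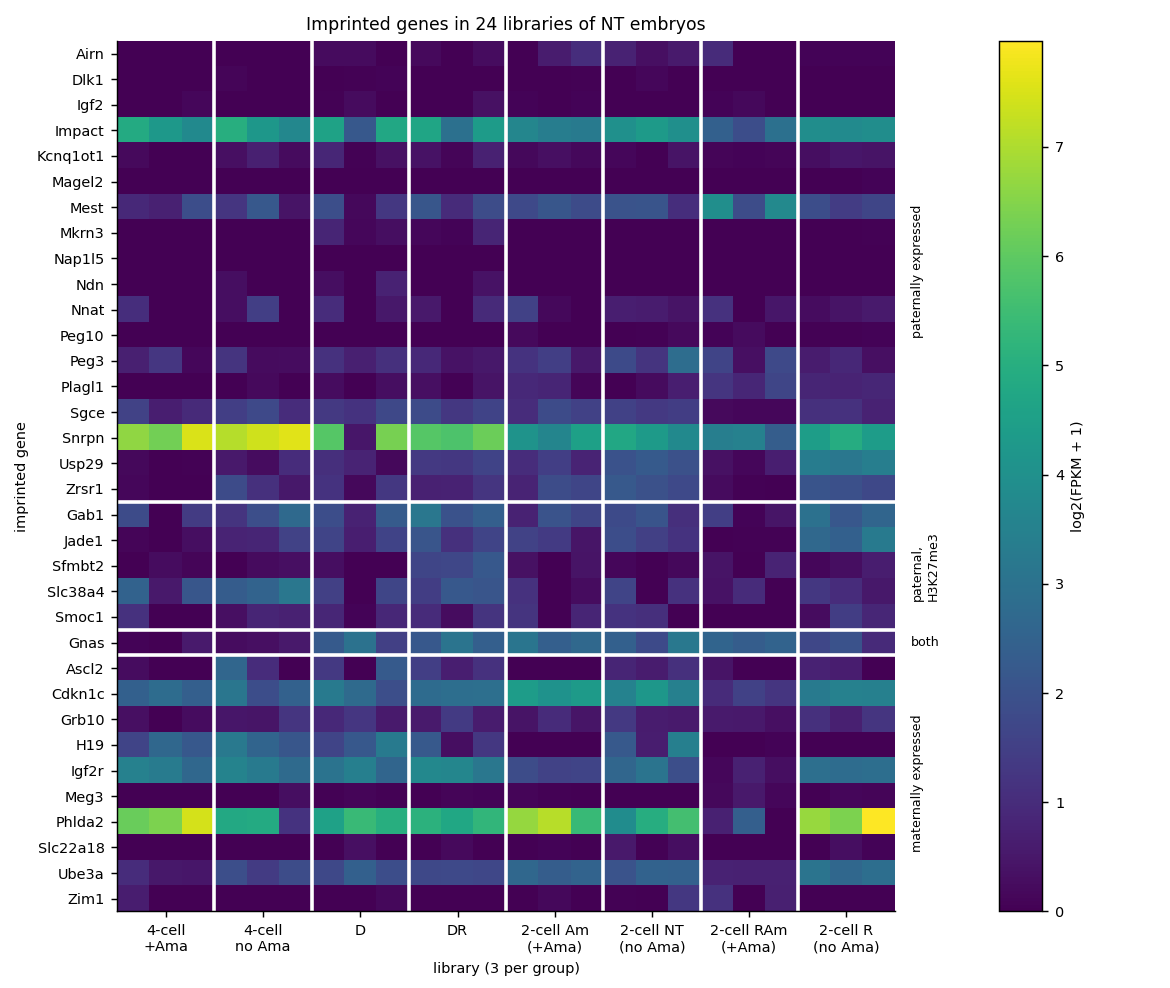
Expression of the 34 imprinted genes (rows, grouped by known parental bias) in 24 libraries (columns, 3 per group), as log2(FPKM + 1) in colour. Snrpn, Impact and Phlda2 stand out in most groups, and Phlda2 is near 0 in the RAm libraries, while many paternally expressed genes are near 0 throughout.

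The first comparison asks how far transcript levels in arrested 4-cell NT embryos depend on transcription by RNA polymerase II. No imprinted gene passed the test. A gene entered the test (limma, log2(FPKM + 1), Benjamini-Hochberg adjustment) when 3 or more libraries reached 1 FPKM, and 11 of the 34 qualified. Of these 0 rose and 0 fell at an adjusted p under 0.05, where 11.1% of all 9884 genes tested were higher and 1.13% lower without α-amanitin. That background, 1093 genes higher, fell to 57, 129 and 79 without PBS_S7, PBS_S17 and PBS_S15, libraries without α-amanitin, and to 511 and 651 without AmanitinControl_S18 and AmanitinControl_S8. At an unadjusted p under 0.05 there were 2 members, beside 2861 of all 9884 genes. Limma-voom on recovered reads called 1 of the 2, Phlda2, as lower, and called 1105 of all genes higher and 79 lower. The median log2 change of the 11 was 0.35 and that of all genes was 0.37 (0.13 with median-of-ratios scaling, by which 760 genes were higher and 223 lower in place of 1093 and 112).

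Phlda2 (chr7:143501545-143503150, GRCm38, minus strand), a maternally expressed gene of the Kcnq1 cluster, had 70.8, 83.2 and 175 FPKM in the libraries with α-amanitin and 27.02, 28.3 and 1.24 FPKM in those without. Every library without α-amanitin was below every library with it. The log2 change was -3.06 (SE 0.91, adjusted p = 0.060 by limma), and limma-voom gave -3.28 with an adjusted p of 0.046. The lowest library rested on 3 reads, and without it the log2 change was -1.83. Ube3a, a ubiquitin ligase that is maternally expressed in neurons, had 1.02, 0.43 and 0.40 FPKM with and 2.75, 1.59 and 2.62 FPKM without α-amanitin. Its groups did not overlap, as for 35.2% of all genes tested, with a log2 change of 1.04 (SE 0.37, adjusted p = 0.10). Exons that share bases with other genes make up 27.3% of Ube3a, among them the antisense Snhg14, and in these libraries strands cannot be told apart. The share is 34.1% for Snrpn (among them Snurf), 30.7% for Cdkn1c, 22% for Gnas, 14.8% for Usp29 and at most 9.17% for the other members called in any comparison except Mest.

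Among the other maternally expressed genes, H19, a noncoding RNA that is the counterpart of Igf2, was at 5.55 ± 2.57 FPKM without and 3.68 ± 1.64 FPKM with α-amanitin (SD, n = 3 each). Igf2r, the receptor that clears Igf2, was at 8.35 ± 2.54 and 8.17 ± 2.60 FPKM, and Cdkn1c at 4.99 ± 2.57 and 4.93 ± 0.96 FPKM. These differences were smaller than the spread between libraries. Paternally expressed Snrpn was at 165.9 ± 30.2 FPKM without and 118.8 ± 54.9 FPKM with α-amanitin, with overlapping libraries. Impact was at 20.1 ± 9.74 and 19.8 ± 8.03 FPKM, again within the spread. Slc38a4, an amino acid transporter imprinted through H3K27me3, was at 5.60 ± 2.09 and 2.84 ± 2.19 FPKM (adjusted p = 0.31). The adjusted p of the members other than Phlda2 and Ube3a ranged upward from 0.31.

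Several weakly expressed members had too few reads to be tested, and are given as reads, chosen after their values were seen. Jade1, which encodes a subunit of a histone acetyltransferase complex and is imprinted through H3K27me3, had 0 to 3 reads per library with and 12 to 36 reads without α-amanitin. The ratio of summed reads per library total was 11.5, with an exact 95% interval of 4.68 to 36.7. Zrsr1, a retrogene for a splicing factor that lies within Commd1, had at most 1 read with and 3 to 19 reads without, a ratio of 26.9 (4.47 to 1101). Usp29, of the Peg3 cluster, had 0.46, 0.21 and 1.00 FPKM without and at most 0.12 FPKM with α-amanitin. Maternally expressed Zim1 went the other way, with 0 reads without and 0 to 14 reads per library with α-amanitin. Such intervals, and the bounds given further on, cover counting error only, and PCR copies were counted as reads.

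Of the 39 other imprinted genes on a list, 10 were tested and 1 rose, where 11.1% of all genes did. This was Blcap, at 5.05 ± 3.75 FPKM without and 0.39 ± 0.67 FPKM with α-amanitin (log2 change 2.04, adjusted p = 0.047). It had 11, 0 and 0 reads with α-amanitin, so it could enter the test only with libraries without it. Nnat, a member, lies within an intron of Blcap and had 0 to 1.79 FPKM. Of 16 regulators of imprints, 15 were tested and 1 rose, again beside 11.1% of all genes. This was Eed, a subunit of the complex that writes H3K27me3, at 91.0 ± 18.7 FPKM without and 23.9 ± 13.0 FPKM with α-amanitin (log2 change 2.06, adjusted p = 0.027). Both calls come from the fit in which leaving out 1 library without α-amanitin cut the genes called higher to 57, 79 or 129. Mitochondrial genes took 5.76% to 6.09% of reads without and 11.4% to 18.99% with α-amanitin, and the summed level of donor markers was 237 to 743.6 FPKM and 198.7 to 2392 FPKM. The part of either in these values was not tested.

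**Figure D2:**
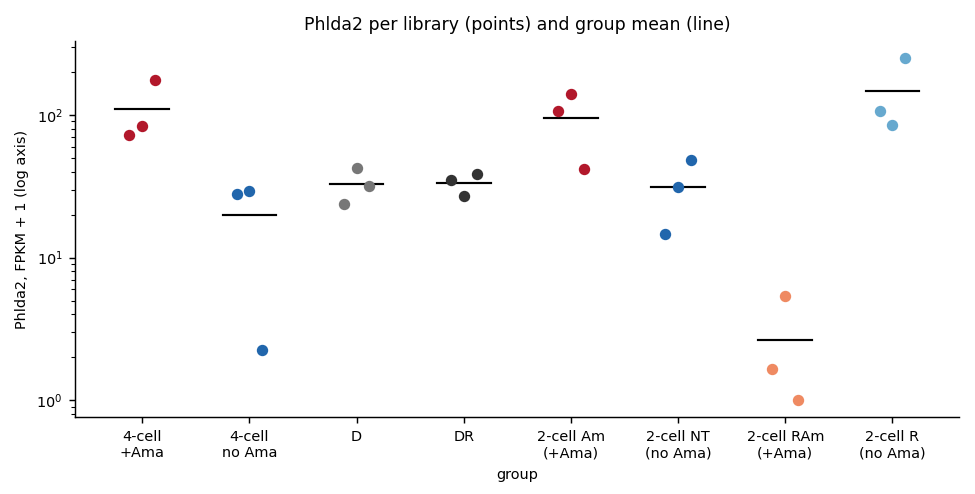
Phlda2 in FPKM + 1 on a log axis, with 1 point per library and a line at the mean of each group of 3. It lies lower without than with α-amanitin in 4-cell embryos, and in the R and RAm columns of the 2-cell table the order is the opposite, 83.9 to 250.1 FPKM against 0 to 4.34 FPKM.

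The second comparison sets DR beside D, groups that differ in DNA replication after NT and also in the time of NT. No imprinted gene was called between DR and D, nor was any gene of the table. FPKM were scaled to the 19 spike-in RNAs found in all 6 libraries, and of 17 members tested 0 were called, with a background of 0% of 14570 genes. By limma 88 genes of all those tested had an unadjusted p under 0.05, none of them a member, and limma-voom called 0 genes with 863 under that level, 2 of them members (Sfmbt2 and Usp29). With median-of-ratios scaling and on FPKM as deposited 1 member was under that level, Sfmbt2. Scaling factors ranged 0.0945 to 5.65, and the median log2 change of all genes was -1.41, against 0.02 on FPKM as deposited. Directions therefore depend on the scaling, and the following levels are FPKM as deposited.

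Sfmbt2, a polycomb protein needed in the placenta and imprinted through H3K27me3, had 2.17, 2.22 and 3.58 FPKM in DR and 0.24, 0 and 0.016 FPKM in D. Each DR library held 69 to 86 reads and each D library 0 to 13. Sfmbt2 reached 1 FPKM in DR only, so it could enter the test only with DR higher and the groups apart on this scale. The groups did not overlap on FPKM as deposited, as for 8.21% of all genes with DR higher and 3.99% with DR lower, and the log2 change of 1.74 had an adjusted p of 0.77. After scaling to spike-ins it was 0.97 (adjusted p = 0.71). Sfmbt2 is named after its values were seen.

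The library D4, the deepest of the experiment, had little RNA of several members. Snrpn was at 0.39 FPKM in it and at 52.7 to 79.0 FPKM in the other 5 libraries. Impact was at 3.57 FPKM in D4 and 6.72 to 26.7 FPKM in the others, Mest, a hydrolase-like protein, at 0.13 against 0.98 to 3.35 FPKM, and Slc38a4 at 0 against 1.74 to 3.57 FPKM. Of the 17 members tested, 10 had their lowest level of the 6 libraries in D4, and 19.2% of all genes tested did. The 10 were Ascl2, Gab1, Impact, Jade1, Mest, Sfmbt2, Sgce, Slc38a4, Snrpn and Zrsr1. Of the maternally expressed members tested, Ascl2 was lowest in D4, Cdkn1c and Igf2r in D5 and H19 in DR2. Phlda2 and Ube3a were highest in D4, at 41.6 and 4.47 FPKM, and the share of all genes highest there was not counted. Leaving D4 out gave 0 calls among members as well. This pattern was seen in the values first and no test was made of it.

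**Figure D3:**
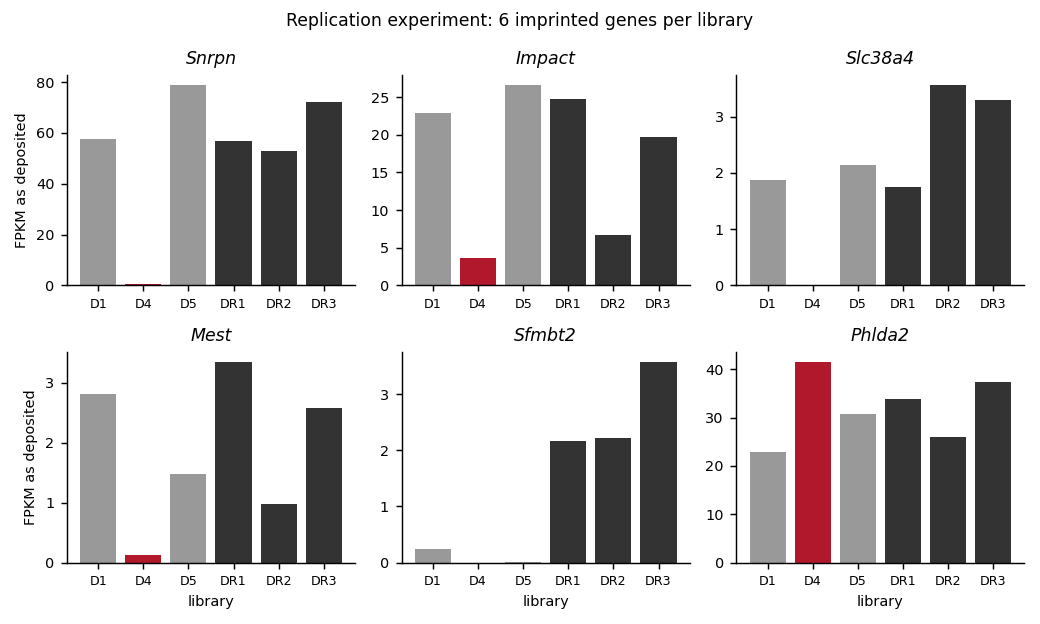
FPKM as deposited of 6 imprinted genes in each library of the replication experiment, with D4 in red, the other D libraries in light grey and the DR libraries in dark grey. Snrpn, Impact, Slc38a4 and Mest are lowest in D4, Phlda2 is highest there, and Sfmbt2 is at 2.17 to 3.58 FPKM in DR and at most 0.24 FPKM in D.

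The third comparison asks the same of 2-cell NT embryos, the stage at which the main wave of zygotic genome activation takes place. With both column sets together, 14 of the 34 members were tested (at least 1 FPKM in at least 6 of 12 libraries) and 6 rose without α-amanitin, Usp29, Igf2r, Jade1, Zrsr1, Impact and Gab1, and 0 fell. Of all 13531 genes tested, 44% were higher and 8.6% lower, so the share of members, 6 of 14, was near the background. The median log2 change was 1.00 for the 14 members and 0.83 for all genes. Usp29, Igf2r, Jade1 and Zrsr1 were under 1 FPKM in every RAm library, and Gab1 in some of them. With α-amanitin alone they could not reach the filter, so the count of 6 is a description. Without the filter 6 of 32 members were higher and 0 lower, where 14.2% and 2.53% of all 38827 genes were. With the column set as a term 8 members were higher and 0 lower, where 6744 and 1407 of all genes were.

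Usp29 had a lowest, median and highest level of 2.90, 5.91 and 9.57 FPKM without and 0.091, 0.67 and 1.79 FPKM with α-amanitin. Its groups did not overlap, which held for 22.2% of all genes tested, and the log2 change was 1.95 (SE 0.35, adjusted p = 0.00086). Igf2r had 2.78, 6.17 and 7.45 FPKM without and 0.10, 1.31 and 2.58 FPKM with α-amanitin, again with no overlap (log2 change 1.67, SE 0.35, adjusted p = 0.0025). Impact had 13.0, 14.4 and 19.2 FPKM without and 2.69, 7.58 and 11.5 FPKM with it. Its groups did not overlap either (log2 change 1.07, SE 0.34, adjusted p = 0.019), but the call was lost with median-of-ratios scaling, at a log2 change of 0.33.

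The groups of the other 3 overlapped. Jade1 ranged from 1.26 to 8.51 FPKM without and from 0 to 2.00 FPKM with α-amanitin (log2 change 1.58, adjusted p = 0.0060). Zrsr1 ranged from 2.28 to 3.69 and from 0 to 2.64 FPKM (log2 change 1.19, adjusted p = 0.011). Gab1, a docking protein of growth factor signalling that is imprinted through H3K27me3, ranged from 1.12 to 6.93 and from 0.067 to 3.09 FPKM (log2 change 1.03, adjusted p = 0.036). Its call was lost without Am1, NT2, RAm2, RAm3, R3, r1 or r2 and in 5 other alternatives, with adjusted p up to 0.22. Phlda2 had 13.6, 65.7 and 250.1 FPKM without and 0, 22.5 and 138.6 FPKM with α-amanitin and was not called (adjusted p = 0.12, and 0.047 and 0.038 without Am1 and Am2). Scaling to spike-ins, under which the median of all genes was 1.79, called 12 members higher and 0 lower, where 77.7% and 1.34% of all genes were called. Median-of-ratios scaling, with a median of 0.30, called 4 higher and 2 lower, where it was 25.3% and 15.8%.

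The column sets were then fitted apart, since the groups of 6 mix them, a step added after the columns had been seen. Every value from R and RAm rests on the RAm group that stood apart, and the values from NT and Am are those without it. In the R and RAm columns, 12 members were tested, 10 rose without α-amanitin and 2 fell. There 60.5% of all 14387 genes tested were higher and 16.4% lower, and the groups of 78.5% did not overlap. Of the 12, 5 (Igf2r, Jade1, Ube3a, Usp29 and Zrsr1) reached 1 FPKM only in the 3 R libraries, so they could enter the test only by being higher there, and the count of 10 is a description. For these 5 the adjusted p given for R and RAm is that of a fit without the filter, added after the data were seen. In that fit 12 of 31 members were called higher and 0 lower, where 28.2% and 6.47% of all 35570 genes were. The median log2 change of all genes was 1.30. In the NT and Am columns, 16 members were tested and 0 were called, where 12.7% of 14285 genes were higher and 4.18% lower. At an unadjusted p under 0.05 there were 4 members and 4809 of all genes. The median log2 changes were 0.18 for members and 0.27 for all genes. The NT and Am libraries did not overlap for Usp29, Igf2r and Impact, nor for 38% of all genes tested there.

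**Figure D4:**
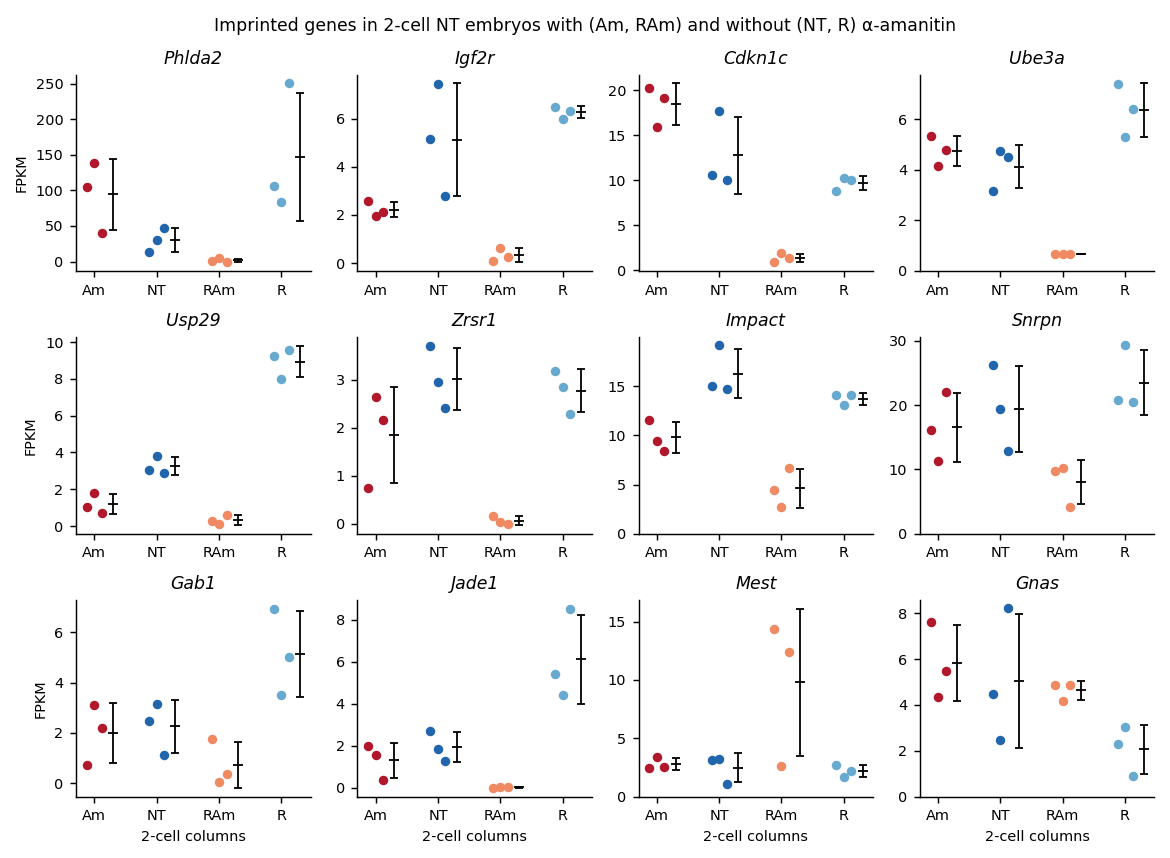
FPKM of 12 imprinted genes in the 4 kinds of 2-cell columns, with 1 point per library, and the mean and SD of 3 libraries beside the points. In the RAm columns Phlda2, Igf2r, Cdkn1c, Ube3a, Usp29, Zrsr1 and Jade1 lie below the R columns with no overlap, and Mest is at 14.4 and 12.4 FPKM in 2 of the 3 RAm libraries.

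On the log2(FPKM + 1) scale Phlda2 had the largest change of the 12 members. It had 105.7, 83.9 and 250.1 FPKM in R and 0.66, 4.34 and 0 FPKM in RAm, where it rested on 0 to 43 reads. The log2 change was 5.99 (SE 0.66, adjusted p = 0.00013). In the other set it had 13.6, 30.2 and 47.5 FPKM in NT and 104.7, 138.6 and 40.6 FPKM in Am, overlapping, with a log2 change of -1.60 (SE 0.55, adjusted p = 0.082). Without the library NT3 the change there was -1.99 with an adjusted p of 0.042. The difference between the sets of the 2 changes, tested as an interaction term in limma, was 7.59 (SE 0.94, adjusted p = 5.0e-05). Levels in libraries with α-amanitin were thus 40.6 to 138.6 FPKM in the first set and at most 4.34 FPKM in the second.

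Of the 10 maternally expressed members, 4 were tested in R and RAm, Phlda2, Cdkn1c, Ube3a and Igf2r, of which the last pair entered through R alone. All 4 were called higher, where 60.5% of all genes were. Meg3, a noncoding RNA that was not tested, had 0.10 to 0.47 FPKM in RAm and 0.017 to 0.11 FPKM in R. Cdkn1c had 8.78, 10.3 and 10.04 FPKM in R and 0.96, 1.89 and 1.33 FPKM in RAm (log2 change 2.17, adjusted p = 0.00018). In the NT and Am columns it had 10.5, 17.7 and 10.1 FPKM and 20.3, 15.9 and 19.2 FPKM (log2 change -0.53, adjusted p = 0.23). Ube3a had 7.42, 5.30 and 6.41 FPKM in R and 0.68, 0.68 and 0.65 FPKM in RAm, against 3.15 to 4.74 FPKM in NT and 4.14 to 5.33 FPKM in Am. For both genes the RAm libraries were the lowest of the 12, and the difference between sets passed the test (2.71 for Cdkn1c with adjusted p = 0.00011 and 2.31 for Ube3a with adjusted p = 0.00018). Igf2r had 6.50, 6.00 and 6.33 FPKM in R and 0.10, 0.64 and 0.23 FPKM in RAm, with a log2 change of 2.48, and in the other set 5.16, 7.45 and 2.78 FPKM in NT and 2.58, 1.97 and 2.11 FPKM in Am. It was thus above its amanitin group without overlap in both sets. Without the filter the adjusted p was 0.00059 in R and RAm and 0.27 in NT and Am.

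Of the paternally expressed genes, Usp29 had 9.28, 8.004 and 9.57 FPKM in R and 0.28, 0.091 and 0.61 FPKM in RAm (log2 change 2.92, adjusted p = 0.00032). It had 3.03, 3.81 and 2.90 FPKM in NT and 1.03, 1.79 and 0.72 FPKM in Am (log2 change 0.98, adjusted p = 0.063). Its RefSeq window shares 263 bases with that of Peg3, on the other strand, but Peg3 itself, a zinc finger gene, did not pass the filter in R and RAm, with 0.26 to 0.83 FPKM and 0.24 to 2.36 FPKM. Zrsr1 had 3.17, 2.85 and 2.28 FPKM in R and 0.16, 0.025 and 0 FPKM in RAm, where it rested on 0 to 7 reads (log2 change 1.82, adjusted p = 0.0019). Its host gene Commd1 was at 2.02 ± 1.17 and 1.66 ± 1.29 FPKM in the same columns (SD, n = 3 each). Snrpn had 20.9, 29.3 and 20.4 FPKM in R and 9.74, 10.2 and 4.09 FPKM in RAm (log2 change 1.51, adjusted p = 0.0057), and Impact 14.1, 13.0 and 14.1 FPKM against 4.46, 2.69 and 6.70 FPKM (log2 change 1.46, adjusted p = 0.0033). With median-of-ratios scaling, under which the median of all genes was 0.56, neither Snrpn nor Impact was called.

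Of the 5 genes imprinted through H3K27me3, Jade1 and Gab1 were tested in R and RAm and called higher, where 60.5% of all genes were, and Jade1 entered through R alone. In NT and Am 4 were tested and 0 were called. Jade1 had 5.42, 4.41 and 8.51 FPKM in R, on 372.5 to 706 reads, and 0, 2 and 2 reads in RAm. The ratio of summed reads per library total was 327, with an exact 95% interval of 127.6 to 1203 for counting error. It had 2.68, 1.86 and 1.26 FPKM in NT and 2.00, 1.54 and 0.36 FPKM in Am, and the difference between sets was 2.36 (adjusted p = 0.0014). Gab1 had 6.93, 3.49 and 5.02 FPKM in R and 1.77, 0.067 and 0.37 FPKM in RAm (log2 change 1.91, adjusted p = 0.0034, and 0.052 with median-of-ratios scaling). Smoc1, a secreted matrix protein, was not tested there, with 7 to 60 reads in R and 0 in RAm, at least 8.85-fold higher with 3 reads per library as the floor and 4.95-fold without r1. Sfmbt2 and Slc38a4 were at most 0.57 and 1.45 FPKM in R and 0.72 and 0.98 FPKM in RAm.

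Mest and Gnas went the other way in FPKM. Mest had 2.69, 1.69 and 2.17 FPKM in R and 14.4, 2.61 and 12.4 FPKM in RAm, so that the groups overlapped and 2 RAm libraries stood high (log2 change -1.52, SE 0.55, adjusted p = 0.035). The call was lost without RAm1 (adjusted p = 0.10), RAm3 or any of the R libraries and in the fit without the filter (0.099), and under spike-in scaling the change was 0.051. Mest shares 23.1% of its exon bases with Copg2, on the other strand, which was at 3.51 ± 1.17 FPKM in RAm and 0.89 ± 0.41 FPKM in R. Gnas, the stimulatory G protein locus, had 2.28, 3.02 and 0.91 FPKM in R and 4.89, 4.15 and 4.86 FPKM in RAm, without overlap (log2 change -0.94, SE 0.33, adjusted p = 0.031). That call was lost without RAm1, RAm3, R3 or r2 and without the filter (0.067), and under spike-in scaling the change was 0.51 (adjusted p = 0.16). Among members that were not tested, Zim1, a maternally expressed zinc finger gene, had 0 reads in R and 92, 0 and 36 reads in RAm. Its mean of 0.61 FPKM in RAm was at least 16.2-fold higher by the same floor, though 1 RAm library was also at 0, and without RAm1 the bound was 8.43-fold. Airn, the antisense RNA of Igf2r, had 3 reads in every R library and 42, 0 and 0 reads in RAm.

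H19 had 3.64, 0.56 and 9.86 FPKM in NT, on 14.5 to 184 reads, 0 reads in Am and R, and at most 1 read in RAm. It did not pass the filter, so no test was made, and with the same floor it was at least 23.6-fold higher in NT than in Am. Without NT3 the bound was 10.6-fold. Of the donor markers, 11 were tested in NT and Am, where 2 rose (Col3a1 and Fn1) and 0 fell, and 8 in R and RAm, where 2 rose and 3 fell. The summed level of the 16 donor markers was 1047 to 4648 FPKM in NT, 2416 to 2629 FPKM in Am, 206.5 to 575.6 FPKM in R and 1332 to 1842 FPKM in RAm. The part of donor RNA in H19 or in any other value was not tested. H19, Smoc1 and the members called in R and RAm but not over all 12 libraries were chosen after their values were seen.

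**Figure D5:**
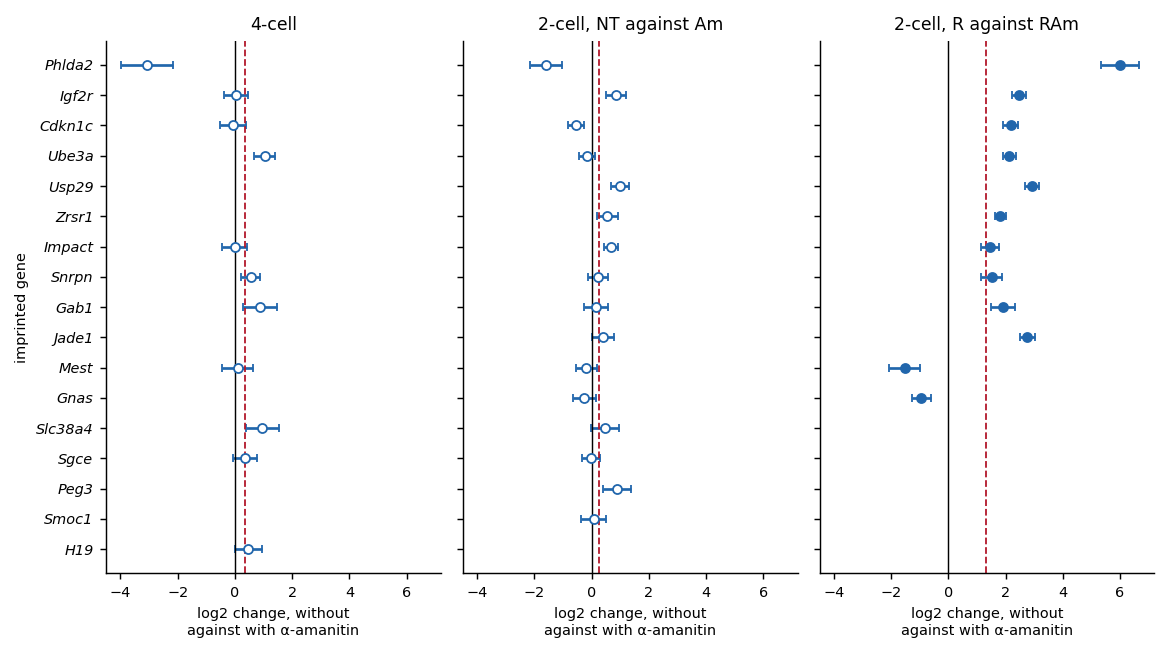
Log2 change of log2(FPKM + 1) without against with α-amanitin, with its SE, for imprinted genes tested in 4-cell embryos and in each column set of 2-cell embryos. Filled points passed an adjusted p under 0.05, and the dashed line is the median of all genes tested, 0.37, 0.27 and 1.30. Only the R and RAm columns have filled points, with Phlda2 farthest from the line.

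Of the 14 members that could be compared between the column sets, the change was higher in R and RAm than in NT and Am for 8 (Phlda2, Cdkn1c, Jade1, Ube3a, Usp29, Gab1, Igf2r and Zrsr1) and lower for 0, by the interaction term. Gab1 lost this call in 8 of 16 alternatives (without Am2, Am3, NT3, RAm2, RAm3, R3 or r2 and with median-of-ratios scaling, adjusted p up to 0.18) and Igf2r with median-of-ratios scaling (0.054). Over all 13531 genes it was 44.5% and 7.32%. The median difference was 1.46 for the members and 1.02 for all genes. With median-of-ratios scaling 6 were higher and 3 lower, where 24.3% and 16.3% of all genes were and the median was 0.32. With spike-in scaling it was 11 and 0, and 61.1% and 1.92% of all genes. Of 10 oocyte and early embryo markers, 2 rose and 7 fell without α-amanitin in R and RAm (median log2 change -1.68), and 0 rose and 4 fell in NT and Am (median -1.09). Their summed level was 1476 to 3254 FPKM in RAm and 7413 to 9102 FPKM in R, against 6927 to 8059 FPKM in Am and 8480 to 12340 FPKM in NT, and the marker with the highest mean was Dppa3 in R, at 7977 FPKM, and Oosp1 in RAm, at 1325 FPKM. Their part in the difference was not tested, and whether it goes with early or late embryos cannot be told from the columns.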

How the data were processed

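RNA-seq libraries (SMART-seq v4, not stranded) of C2C12 NT embryos were used. The authors filtered reads with Trimmomatic, Trim Galore and Cutadapt, mapped them to mm10 with STAR and, per the labels, counted with featureCounts. Versions are not given in the sources used here. The deposited values are FPKM, scaled for gene length and library total, so a few genes that take many reads lower all others. Reads were recovered from FPKM and gene length, whole in the 4-cell table and approximate in the others. A further 4 columns of the replication table, whose names fit no sample, were not used, nor was the oryx table.

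The test was that of limma (version 3.58.1, R 4.3.3), with a trend of variance on mean, for genes that reached 1 FPKM in 3 or more libraries (6 over all 2-cell libraries). A pseudocount of 1 was added before taking log2, which understates changes of weakly expressed genes. P-values were adjusted over all genes tested, two-sided. Replication FPKM were first scaled to 19 ERCC spike-ins. Columns were assigned by their names. The code was tested on simulated data. Members called or not overlapping over the 4-cell or all 2-cell libraries were given per library. The members and lists were chosen with earlier results of these data known. Alternatives were a pseudocount of 0.1, no filter, median-of-ratios and spike-in scaling, limma-voom on recovered reads, each library left out, a replicate block and the column set as a term. Numbers in column names agree within the 2-cell sets only, and same-numbered libraries hardly deviated together.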

Additional observations from a re-analysis of the deposited data

Results flagged for a closer look

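Of 28 groups of 6 2-cell libraries checked, 3 held a library far from the others by Dixon's criterion, where about 1 in 20 is met by chance. That rate is for libraries of a single population, and each group of 6 mixes the column sets, so a difference between sets can also meet it. All 3 were without α-amanitin and from the NT columns. Cdkn1c was high in NT2 (17.7 FPKM, a gap of 0.802 of the group's range), Impact in NT2 (19.2 FPKM, 0.678) and Peg3 in NT3 (6.21 FPKM, 0.636).

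The change without against with α-amanitin differed between the column sets, by the interaction term in limma, for 8 members. On the log2 scale, R and RAm exceeded NT and Am by 7.59 for Phlda2, 2.71 for Cdkn1c, 2.36 for Jade1, 2.31 for Ube3a, 1.94 for Usp29, 1.76 for Gab1, 1.62 for Igf2r and 1.27 for Zrsr1. The calls of Gab1 and Igf2r were lost with median-of-ratios scaling, and that of Gab1 also without any of 7 libraries in turn. Over all genes tested the median difference was 1.02.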

How the results depend on the processing

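Limma-voom called 1 member, as lower, in 4-cell embryos where limma on log2(FPKM + 1) called 0. Of all genes limma-voom called 1105 higher and 79 lower there. Spike-in scaling called 12 members in the 2-cell embryos together, 4 in NT and Am and 10 in R and RAm. Of all genes tested, 77.7%, 31.5% and 80.5% were higher in these fits. Leaving out 1 library gave 0 to 0 members in the 4-cell and replication experiments, 5 to 8 in the 2-cell embryos together, 0 to 2 in NT and Am (2 without NT3), 5 to 12 in R and RAm and 7 to 10 for the difference between sets. Over all genes, those called higher ranged from 4764 to 6959 in the 2-cell embryos together and 540 to 2074 in NT and Am. In R and RAm they ranged from 5051 to 8614, and for the difference from 5353 to 5921. Between 11045 and 14269 genes were tested in these 2-cell fits. In R and RAm, 5, 6 and 5 were called without R3, r1 and r2, since 7 in place of 12 members then reached the filter (Igf2r, Ube3a, Usp29, Zrsr1 and Jade1 did not). Without the filter 12 members were called in R and RAm and 0 in NT and Am, where 28.2% and 1.36% of all genes were higher. Under spike-in scaling Gnas (0.51) and Mest (0.051) reversed in R and RAm. With a replicate block by column number, 5 members were called in the 2-cell embryos together (Gab1 lost its call, adjusted p = 0.079) and 8 for the difference between sets. Of all 13531 genes, 5438 and 5847 were higher in these fits. With the column set as a term, 8 members and 6744 of all genes were called higher in the 2-cell embryos together. Same-numbered libraries correlated at 0.018 to 0.072 in their deviations. EdgeR and DESeq2 were foreseen and not run, nor were early and late embryos fitted apart, since the columns do not name them. With median-of-ratios scaling Impact, Gab1 and Snrpn lost calls in R and RAm.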

Other observations

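Other genes of the lists were read in the R and RAm columns. Of 39 other imprinted genes, 11 were tested, 7 rose and 2 fell without the inhibitor, where 60.5% of all genes tested rose and 16.4% fell, and their median change (log2) was 1.31 beside 1.30 for all genes. Mcts2, Tssc4 and Xist reached 1 FPKM only in R and Th only in RAm. They could enter the test only by being higher there, so the counts are a description. Mcts2, a paternally expressed retrogene within H13, was at 67.8 to 102.9 FPKM in R and had 0 reads in all 3 RAm libraries, at least 227-fold higher with 3 reads per library as the floor. It was at 76.2 ± 9.28 FPKM in NT and 36.8 ± 13.1 FPKM in Am (SD, n = 3 each), and it was named after its values were seen. Its host H13 was at 2.91 ± 0.88 FPKM in R and 0.50 ± 0.57 FPKM in RAm.

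Of 16 regulators of imprints, 15 were tested there, 8 rose and 1 fell, where 60.5% and 16.4% of all genes did. Trim28 was at 25.9 ± 1.12 FPKM in R and 2.06 ± 0.83 FPKM in RAm, and Zfp445, a zinc finger protein that keeps imprints, at 7.13 ± 0.94 and 1.05 ± 0.86 FPKM. Zfp57 was at 13.9 ± 1.72 and 17.9 ± 3.59 FPKM. In NT and Am, 0 of 15 passed the test by limma, where 12.7% of all genes rose and 4.18% fell, with Zfp57 at 4.13 ± 1.21 and 4.20 ± 0.94 FPKM.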
